A study of Mus musculus with 24 samples.

Results

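The mitochondrial respiratory chain is encoded, on the nuclear side, by genes with the name stems Nduf (complex I), Sdha to Sdhd (complex II), Uqcr (complex III), Cox4 to Cox8 (complex IV) and Atp5 (complex V, the ATP synthase). Every gene of the array annotation with one of these stems was taken, leaving out pseudogenes and related sequences, whose names hold -ps or -rs. This gave 94 genes of the 18194 that had a probe set of their own. The same stems bring in assembly factors, the Ndufaf and Sdhaf genes, which help to build complexes I and II but are not part of them. Of the 94 genes, 93 passed the filter on low signal on both kinds of array: 35 of complex I, 4 of complex II, 8 of complex III, 17 of complex IV, 17 of complex V and 12 assembly factors. Complexes were assigned by name stem alone, so Ndufa4 and Ndufa4l2 count under complex I whatever complex their proteins belong to. Ndufb4 stayed near background and was not tested. For Cox7b, Ndufa11, Ndufb4b, Ndufb4c and Ndufs6 no probe set names just the 1 gene, and they are not described.

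RNA was hybridised to 24 Affymetrix mouse arrays, 2 for each of 12 groups of C57BL/6 cells. On 12 unamplified arrays the groups were embryonic stem cells (ESCs), grown feeder free in 2i+LIF, EpiLCs (epiblast-like cells induced from those ESCs) on days 1, 2 and 3, EpiSCs and PGCLCs. 2i+LIF combines inhibitors of a pair of kinases with the cytokine LIF. EpiSCs, or epiblast stem cells, came from the epiblast at embryonic day 5.75. PGCLCs, which resemble primordial germ cells, were made from day 2 EpiLCs. On 12 amplified arrays, whose RNA (5 ng, the amount of 500 cells) went through 22 cycles of PCR, the groups were ESCs, day 2 EpiLCs, EpiSCs, PGCLCs, the epiblast of embryonic day 5.5 to 6 and primordial germ cells (PGCs) of embryonic day 9.5. How PGCs and PGCLCs were isolated is not given in the labels. The labels call the 2 arrays of a group biological replicates and say no more, so the p-values speak of the spread among these samples, which may be technical. Precision is set by having 2 arrays a group. In bulk samples, fewer cells of a type and less RNA per cell cannot be told apart.

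Complexes I and II pass electrons from NADH and succinate to ubiquinone, complex III hands them through cytochrome c to complex IV, which reduces oxygen, and complex V uses the resulting proton gradient to make ATP. Naive ESCs are known to respire as well as to ferment glucose, while EpiSCs and the early post-implantation epiblast are known to depend more on glycolysis. Several complex IV subunits exist as tissue isoforms: Cox6a2, Cox7a1 and Cox8b are the heart and muscle forms, Cox6b2, Cox7b2 and Cox8c are forms of the testis, and Cox4i2 is a form of the lung.

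Promoters of respiratory chain genes often hold sites for the nuclear factors NRF1, YY1 and GABP, a member of the ETS family, and some hold sites for oestrogen-related receptors (ERR). RefSeq windows of 300 bases, from 250 before to 50 after the start (GRCm38.p6), were found for 78 of the 94 genes. Searched on either strand, the NRF1 motif, GCGCA and GCGC with any base between them, occurred in 19 of 78 windows, or 24.4%, against 5.19% of the windows of 27025 genes. CCGGAAG (ETS) occurred in 22, or 28.2%, against 9.93% of all. AAGATGGC (YY1) occurred in 10, or 12.8%, against 3.19%, and AAGGTCA (ERR) in 8, or 10.3%, against 5.38%. At least 1 of the 4 motifs was found in 45 windows, or 57.7%, against 21.1% of all genes.

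The stretches below show the NRF1 match, in capitals, in 9 genes whose RNA fell on day 1 of EpiLC induction (described further on). They are shown because they span complexes I, II, III and V and assembly factors. Each is 30 bases of the sense strand. Read on the other strand the motif is GCGC and TGCGC with any base between them.
Atp5c1 (chr2:10080430-10080459, minus strand): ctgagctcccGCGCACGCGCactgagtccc
Atp5h (chr11:115420041-115420070, minus strand): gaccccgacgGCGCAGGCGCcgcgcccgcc
Atp5o (chr16:91931602-91931631, minus strand): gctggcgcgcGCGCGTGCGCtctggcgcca
Ndufa6 (chr15:82354249-82354278, minus strand): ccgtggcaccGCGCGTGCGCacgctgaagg
Ndufaf5 (chr2:140170652-140170681, plus strand): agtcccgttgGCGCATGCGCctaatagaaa
Ndufs5 (chr4:123718265-123718294, minus strand): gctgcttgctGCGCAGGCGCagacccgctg
Sdha (chr13:74350319-74350348, minus strand): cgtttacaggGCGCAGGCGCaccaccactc
Sdhaf4 (chr1:24005613-24005642, minus strand): ccaccttggtGCGCGTGCGCagacgctgtg
Uqcrc1 (chr9:108936643-108936672, plus strand): cttccttacaGCGCTTGCGCctcagactcc

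Cox7a1, the member with the largest rise in PGCLCs, held no match to any of the 4 motifs in the 250 bases before its start. They are given in full. A window without a match was common: 45 of the 78 windows held at least 1 motif, and 23 of 46 among members that fell on day 1. Sdhaf4, shown above with a match, also rose in PGCLCs. A link between matches and the rise was not tested.
Cox7a1 (chr7:30183921-30184170, plus strand): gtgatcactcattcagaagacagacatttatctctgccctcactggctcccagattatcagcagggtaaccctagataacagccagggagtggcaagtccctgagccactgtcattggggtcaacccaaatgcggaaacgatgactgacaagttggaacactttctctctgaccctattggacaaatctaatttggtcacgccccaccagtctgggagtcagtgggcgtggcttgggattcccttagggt

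Of the 54 genes that fell on day 1, 46 had a window, and NRF1 was matched in 9 of them (19.6%), ETS in 8 (17.4%), YY1 in 7 (15.2%) and ERR in 1 (2.17%). These shares lie on either side of those of all 78 members: lower for NRF1, ETS and ERR and higher for YY1. A match is a description of the letters and not evidence of binding.

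Of the identity markers, Fgf5 and Prdm14 are given here, and both matched the cell labels. Fgf5, a gene of the post-implantation epiblast, read 1 and 1 in ESCs, 857 and 900 in day 2 EpiLCs and 793 and 950 in EpiSCs, and 824 and 872 in the amplified epiblast. Prdm14, a germ cell specifier also expressed in naive ESCs, read 538 and 561 in ESCs, 1591 and 1768 in PGCLCs and 1154 and 1334 in PGCs, and lay under 10 in EpiSCs, day 2 EpiLCs and epiblast.

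These genes were well detected in every group. The median intensity of the 93 genes lay between 2123 and 2734 on the 12 unamplified arrays, against a filter level of 28.1. ESCs had the highest pair, at 2613 and 2734, and day 1 EpiLCs the lowest, at 2123 and 2196, with no overlap between them. Day 2 EpiLCs stood at 2371 and 2435, day 3 EpiLCs at 2325 and 2599, EpiSCs at 2446 and 2411, and PGCLCs at 2356 and 2558. These last 4 groups overlapped one another.

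**Figure D1:**
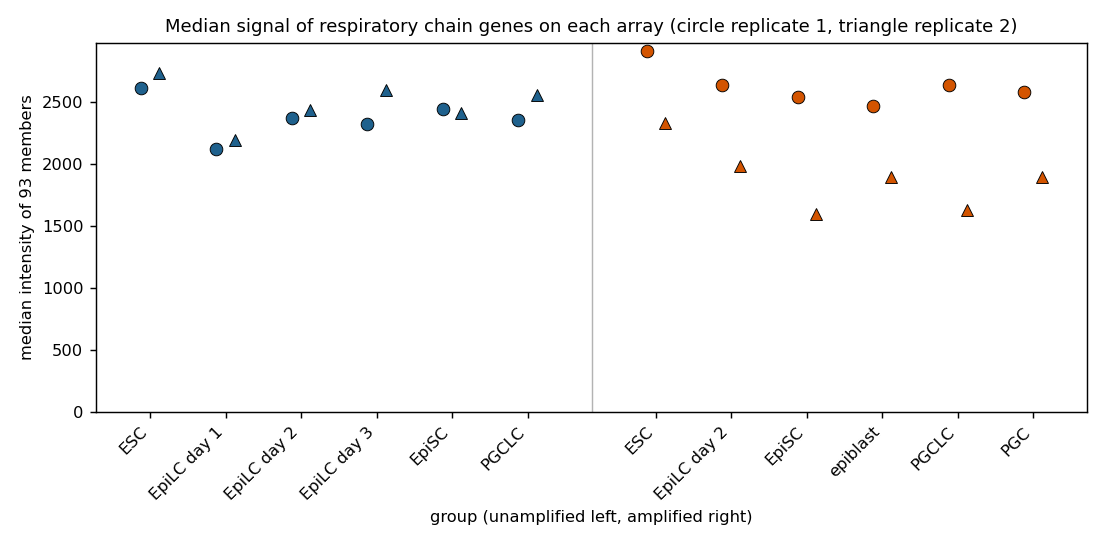
Median intensity of the 93 tested respiratory chain genes on each of the 24 arrays, on a linear axis from 0, with unamplified groups on the left (blue), amplified groups on the right (orange), circles for replicate 1 and triangles for replicate 2. Day 1 EpiLCs, at 2123 and 2196, are lowest among unamplified groups, and on amplified arrays every replicate 2 lies below its replicate 1.

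Amplified arrays were less even. There the medians of replicate 1 lay between 2471 and 2917 and those of replicate 2 between 1601 and 2331, and replicate 2 was the lower array in all 6 groups. The median change per gene from replicate 1 to replicate 2 was -0.02 in day 2 EpiLCs, -0.28 in ESCs, -0.37 in the epiblast, -0.40 in PGCs, -0.57 in PGCLCs and -0.78 in EpiSCs (log2), while the median over all genes stayed between -0.10 and 0.05. Unamplified replicates differed by -0.01 to 0.11. The replicate number coincides with a code in the names of the amplified arrays. Amplified results are therefore also given with replicate number as a blocking term where this changes the count. By root mean square over the members, EpiSC replicates differed by 0.17 unamplified and by 1.00 amplified (log2), and PGCLC replicates by 0.21 and 1.00.

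Single genes also read differently after amplification. Atp5mpl, a small subunit of the ATP synthase, read between 1745 and 2758 without amplification and between 84.3 and 377 with it, so levels are compared only within a kind of array. The probe set of Cox7c, a small complex IV subunit, was dim on both kinds of array, with medians of 141 unamplified and 133.7 amplified. It read 106 to 202 on unamplified arrays.

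The first day of induction, from ESCs to day 1 EpiLCs, brought a small and broad decrease. Of 93 members, 54 fell and 3 rose at an adjusted p under 0.05, where 39.9% of all genes passed, 18.1% higher and 21.8% lower. The median change was -0.27 (log2), against -0.03 over the 14935 genes tested. Few of the decreases were large: 1 member, Ndufaf5, fell by at least 2-fold, where 6.38% of all genes did. The median was -0.29 between the replicate 1 arrays and -0.25 between the replicate 2 arrays.

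The decrease reached every complex. In complex I 23 of 35 genes fell, in complex II 3 of 4, in complex III 5 of 8, in complex IV 11 of 17 and in complex V 7 of 17, with medians of -0.31, -0.48, -0.32, -0.26 and -0.23. Among the 81 subunits, limma called 49 lower and 0 higher, with 2 higher at an unadjusted p under 0.05. Of the 12 assembly factors 5 fell and 3 rose. The 2 subunits higher before adjustment were Cox7b2 (0.87 ± 0.34, adjusted p = 0.064) and Cox6a2 (0.68 ± 0.29, adjusted p = 0.089).

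Ndufaf5, which helps to assemble complex I, read 459 and 501 in ESCs and 220 and 223 on day 1, a difference of -1.12 ± 0.09 (log2 ± SE, n = 2 arrays a group, adjusted p = 3.7e-06), or 2.17-fold. Cox7a1 read 281 and 251 in ESCs and 138 and 167 on day 1, 1.75-fold lower (-0.81 ± 0.12, adjusted p = 0.00037). Cox6b2 read 1788 and 1843, then 1036 and 1128 (-0.75 ± 0.10, adjusted p = 9.8e-05). The arrays of the ESCs and of day 1 did not overlap for any of these genes.

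In complex II, Sdhb, the iron-sulphur subunit of succinate dehydrogenase, read 2613 and 2567 in ESCs and 1591 and 1627 on day 1 (-0.69 ± 0.08, adjusted p = 6.8e-05). Sdha, the catalytic flavoprotein, went from 2255 and 2384 to 1557 and 1640 (-0.54 ± 0.06). Sdhaf4, which protects newly flavinated Sdha during assembly, went from 1279 and 1185 to 766 and 746 (-0.70 ± 0.08, adjusted p = 4.5e-05). For each of these 3 genes the 2 groups were fully apart.

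Among accessory subunits of complex I, Ndufb11 fell by 0.68 ± 0.06 (adjusted p = 4.4e-06) and Ndufa9 by 0.59 ± 0.06. Of the core subunits, some of which carry the flavin or iron-sulphur clusters, Ndufv2 fell by 0.48 ± 0.06, Ndufv1 by 0.32 ± 0.06 and Ndufs1 by 0.25 ± 0.08. Ndufs3, also a core subunit, differed by 0.03 and did not pass (1683 and 1719 against 1695 and 1772). In complex III the core proteins Uqcrc2 and Uqcrc1 fell by 0.58 ± 0.07 and 0.45 ± 0.06. In complex IV the ubiquitous subunits Cox6b1, Cox5b and Cox5a fell by 0.58 ± 0.08, 0.45 ± 0.06 and 0.37 ± 0.04. In complex V the peripheral stalk subunit Atp5pb fell by 0.45 ± 0.06, while the catalytic Atp5b, at 9077 and 9041 against 8601 and 8552, did not pass. The 3 genes that rose, Ndufaf2, Ndufaf8 and Sdhaf3, are all assembly factors, with changes of 0.35 ± 0.07, 0.34 ± 0.07 and 0.31 ± 0.10. The call of Sdhaf3 was lost in each fit that left out 1 array of these groups (adjusted p 0.0728 to 0.148).

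**Figure D2:**
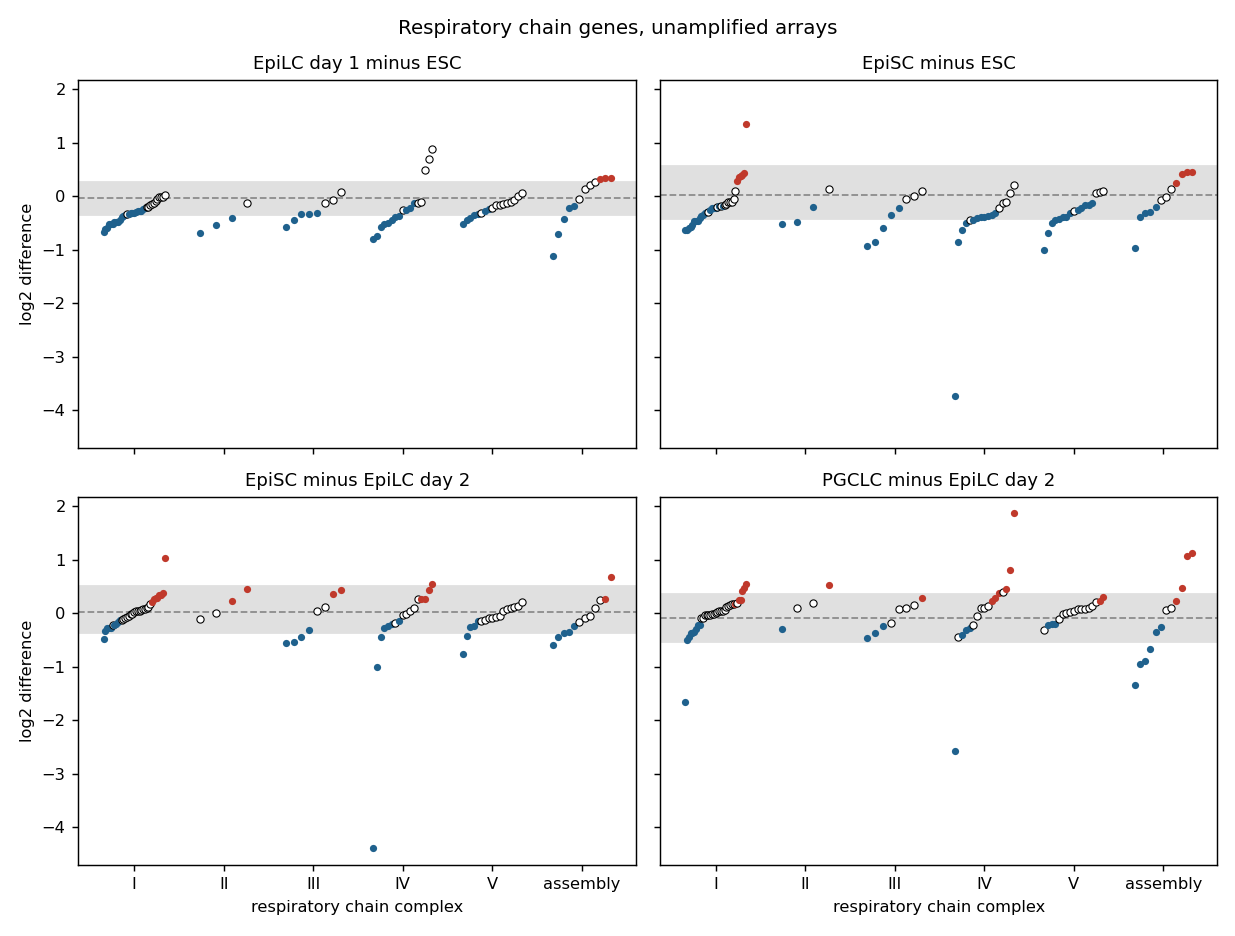
Log2 difference of each tested respiratory chain gene by complex in 4 comparisons of unamplified arrays, 1 point per gene, ordered by value within a complex, red for higher and blue for lower at an adjusted p under 0.05 and open where it did not pass; the grey band spans the 25th to 75th percentile of all genes tested and the dashed line is their median. On day 1 and in EpiSCs against ESCs most points of complexes I to IV are blue, most of these within 1 log2 unit, and the far low point of complex IV in EpiSCs is Cox7b2.

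Other mitochondrial genes are set beside the 18.1% of all genes that rose and the 21.8% that fell. The lists used here were chosen with earlier results of these data known, so their counts are descriptive. Of 17 genes of the TCA cycle and pyruvate dehydrogenase, 7 fell on day 1, and limma called 0 higher. The largest change was in Idh2, the mitochondrial NADP-dependent isocitrate dehydrogenase, which went from 2851 and 2656 to 1302 and 1314 (-1.07 ± 0.06, adjusted p = 3e-07). Of 76 mitochondrial ribosomal proteins, 23 rose and 9 fell, with a median of 0.10. Of 17 assembly factors of complex IV, 3 rose and 4 fell, shares near those of all genes. Of 20 regulators of mitochondrial biogenesis, 6 rose and 3 fell. Among the latter, Esrrb, an orphan nuclear receptor of the ERR family and a naive pluripotency factor, went from 2079 and 2334 to 619 and 688 (-1.76 ± 0.17), and the coactivator Ppargc1b from 292 and 269 to 133 and 129 (-1.10 ± 0.12).

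Between day 1 and day 2 the calls were fewer: 21 members rose and 8 fell, where 32.3% of all genes passed, 18.5% higher and 13.8% lower. The median change was 0.06, against 0.04 over all genes. Without any 1 of the 4 arrays 15 to 18 members passed. The split depended on scaling. With arrays centred on their medians 9 rose and 12 fell, and with quantile normalization 28 rose and 6 fell. Of the 5 largest increases 3 were in complex I assembly factors, of which Ndufaf6 went from 442 and 437 to 782 and 870 (0.91 ± 0.08, adjusted p = 1e-05), Ndufaf7 rose by 0.77 ± 0.07 and Ndufaf3 by 0.55 ± 0.13. Ndufaf4 and Sdhaf2 fell by 0.54 ± 0.11 and 0.48 ± 0.10. Assembly factors of complex I thus moved both ways within 1 day.

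From day 2 to day 3, 8 members rose and 6 fell, where 25.7% of all genes passed, 12.4% higher and 13.3% lower. The median was 0.02 (all genes -0.01). Without replicate 1 of day 2, 7 members passed, and without replicate 2 of day 2 or of day 3, 8. Ndufaf6 rose again, to 1346 and 1368 (0.72 ± 0.08, adjusted p = 8.4e-05), and Ndufaf7 by 0.49 ± 0.07. Cox6b2 returned to 1691 and 1802 (0.55 ± 0.10, adjusted p = 0.0018), beside the 1788 and 1843 of ESCs. Sdhaf2, which attaches the flavin to Sdha, fell by 0.59 ± 0.10 to 231 and 216. Cox7b2 fell by 1.07 ± 0.34 to 72.5 and 73.2 (adjusted p = 0.04), and that call was lost without any 1 of the 4 arrays (adjusted p 0.12 to 0.172).

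Across the whole step from ESCs to day 2 EpiLCs, 51 members fell and 7 rose, where 46% of all genes passed, 23.3% higher and 22.6% lower. The median was -0.25, against 0.01 over all genes. In complexes I to V, 17, 4, 6, 9 and 11 genes fell, and only Ndufa2 and Ndufb1 among the subunits rose. Cox7a1 had the largest decrease, to 121 and 132 (-1.07 ± 0.12, adjusted p = 3.3e-05), followed by Cox6b1, the ubiquitous form of subunit VIb, from 7678 and 7834 to 4622 and 4422 (-0.78 ± 0.08, adjusted p = 1.4e-05). On the same arrays Cyct, the testis form of cytochrome c, went from 405 and 414 to 1734 and 1902 (2.15 ± 0.28), and the ubiquitous Cycs rose by 0.31 ± 0.05 from 4258 and 4470. Slc25a31, the ADP/ATP carrier of germ cells, read 20.9 and 12.9 in ESCs and 158 and 194 on day 2, at least 6.23-fold higher counted from the filter level.

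EpiSCs were compared with ESCs and with day 2 EpiLCs. Against ESCs, 56 members fell and 10 rose, where 57.4% of all genes passed, 31.9% higher and 25.4% lower. The median was -0.26, against 0.02 over all genes. Centring the arrays moved the median of all genes to -0.11, and 67 members then fell and 7 rose. The median was -0.24 between the replicate 1 arrays, whose names carry different codes, and -0.26 between the replicate 2 arrays, which share a code. By complex, 19 of 35, 3 of 4, 5 of 8, 11 of 17 and 13 of 17 genes fell, and 6 genes of complex I rose. Of the 12 assembly factors 4 rose and 5 fell.

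Fibroblast markers were high on these arrays. All 17 were above the filter level in EpiSCs, with a summed intensity of 17890 to 18020, against 1744 to 1760 in ESCs, where 11 of 17 lay below that level on both arrays, and 2535 to 2566 in day 2 EpiLCs. On amplified arrays the sum was 5428 to 9182 in EpiSCs and 440 to 1157 in ESCs, EpiLCs, epiblast and PGCLCs. Their part in the EpiSC results was not tested.

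In complex V, Atp5g1, one of 3 genes for the c subunit of the rotor ring, read 1636 and 1633 in EpiSCs and 3251 and 3361 in ESCs (-1.02 ± 0.06, adjusted p = 1.7e-07). Atp5g3, another gene for the same mature protein, read 7170 and 7100 against 7821 and 7871 (-0.14 ± 0.05), and the remaining one, Atp5g2, 3767 and 3688 against 3438 and 3698. A further, dim probe set of Atp5g1 differed in sign, and with the mean of both probe sets the call was lost (adjusted p = 0.469). In complex III, Uqcrc1 read 2261 and 2262 against 4357 and 4303 (-0.94 ± 0.06, adjusted p = 1.5e-07) and the small subunit Uqcr10 1440 and 1558 against 2637 and 2794 (-0.86 ± 0.07), whereas Uqcrc2, at 3749 and 3275 against 3538 and 3469, did not pass. The paired core proteins of complex III, Uqcrc1 and Uqcrc2, thus differed in their calls in EpiSCs.

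Ndufa4l2, a hypoxia-inducible relative of Ndufa4, was the member with the largest increase. It read 124 and 129 in EpiSCs, 46 and 54.6 in ESCs and 64.2 and 60 in day 2 EpiLCs, which is 2.53-fold above ESCs (1.34 ± 0.21, adjusted p = 0.00023) and 2.04-fold above day 2 EpiLCs (1.03 ± 0.21, adjusted p = 0.0017). Ndufa4 itself fell by 0.47 ± 0.07 from ESCs, to 3998 and 3956. Cox7b2 went the other way: it read 4.73 and 11.3 in EpiSCs, below the filter level of 28.1, and 145 and 162 in day 2 EpiLCs, at least 5.45-fold higher there (adjusted p = 1.4e-06).

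Against day 2 EpiLCs, 30 members fell and 18 rose in EpiSCs, where 52.3% of all genes passed, 30.6% higher and 21.7% lower. The share of members that passed was close to that of all genes. The median was -0.06 (all genes 0.02). Centring gave 35 lower and 11 higher, and quantile normalization, which moved the median of all genes to -0.11, gave 37 and 16. In complex II 2 of 4 genes rose and 0 fell by limma. Sdhd, a membrane anchor, rose by 0.45 ± 0.09, Sdha by 0.23 ± 0.06 and the assembly factor Sdhaf2 by 0.67 ± 0.10. Of the testis forms, Cox8c fell by 0.45 ± 0.12 and Cox6b2 by 0.25 ± 0.10. Cyct read 12.6 and 12.4 in EpiSCs, at least 64.7-fold below day 2 EpiLCs, and Slc25a31 2.13 and 2.06, at least 6.23-fold below. Of 20 biogenesis regulators 11 fell and 1 rose, and of 76 mitochondrial ribosomal proteins 34 fell and 10 rose. Of 17 assembly factors of complex IV, 7 rose and 5 fell.

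PGCLCs were compared with the day 2 EpiLCs they were induced from. Of the members, 20 rose and 26 fell, where 55% of all genes passed, 25.5% higher and 29.4% lower. The median was 0.04, against -0.09 over all genes. With arrays centred, which moved the median of all genes to 0.01, 34 rose and 13 fell, and with quantile normalization 26 rose and 25 fell, so no direction holds for the set as a whole. The median was -0.05 between the replicate 1 arrays and 0.09 between the replicate 2 arrays. Endothelial and blood markers summed to 1331 to 1513 in PGCLCs and to 556 to 558 in day 2 EpiLCs, and 5 of the 15 were below the filter level on both arrays in either group. Fibroblast markers summed to 3272 to 3531 against 2535 to 2566, with 9 of 17 higher and 4 lower. Visceral endoderm markers summed to 6732 to 6926 against 5073 to 5146, with 3 of 12 higher and 1 lower. The part of these markers in the results was not tested.

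The members that moved most in PGCLCs were isoforms and assembly factors. Cox7a1 read 470 and 447 in PGCLCs, the highest level among unamplified groups, and 121 and 132 in day 2 EpiLCs, a 3.63-fold rise (1.86 ± 0.12, adjusted p = 3.9e-07). Sdhaf4 rose 2.19-fold to 1705 and 1884 (1.13 ± 0.08, adjusted p = 6.5e-07), and Ndufaf4, which acts with Ndufaf3 in complex I assembly, rose 2.10-fold to 985 and 1181 (1.07 ± 0.11, adjusted p = 8.3e-06). None of these arrays overlapped between the groups. A further probe set of Ndufaf4, of similar brightness (median 520 against 616 unamplified), differed in sign, at -0.315 (log2). The rise of Ndufaf4 therefore rests on 1 of its probe sets.

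Among decreases, Ndufa4l2 fell to 16.3 and 23.4, below the filter level and at least 2.21-fold under day 2 EpiLCs (adjusted p = 5.2e-05). Cox7b2, at 31.1 and 21.2, had a mean below the filter level and lay at least 5.45-fold under day 2 EpiLCs (adjusted p = 7.1e-05). Sdhaf3 went from 418 and 459 to 186 and 160 (-1.34 ± 0.10, adjusted p = 9e-07), although with the mean of its probe sets it did not pass (adjusted p = 0.0874). Sdhaf1, an assembly factor of the iron-sulphur subunit as Sdhaf3 is, fell by 0.90 ± 0.11, and Ndufaf6 by 0.95 ± 0.08. The 4 Sdhaf genes therefore split: Sdhaf2 and Sdhaf4, which act on Sdha, rose, and Sdhaf1 and Sdhaf3, which act on Sdhb, fell. Of their targets, Sdha rose by 0.52 ± 0.06 to 2387 and 2558, and Sdhb, at 1900 and 2240 against 1832 and 1773, did not pass.

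In complex IV, Cox7c, read by a dim probe set, rose by 0.81 ± 0.12, Cox6b1 by 0.45 ± 0.08, Cox5a by 0.37 ± 0.04 and Cox4i1 by 0.23 ± 0.05. Cox8c, Cox6b2 and Cox8a fell by 0.41 ± 0.12, 0.31 ± 0.10 and 0.27 ± 0.08. In complex I, Ndufb11 rose by 0.55 ± 0.06 and Ndufv1 by 0.47 ± 0.06, while Ndufa1 and Ndufv2 fell by 0.50 ± 0.06 and 0.38 ± 0.06. Atp5g1 rose by 0.29 ± 0.06 to 3583 and 3213. Ppargc1b read 1 and 1 in PGCLCs, at least 10.4-fold under day 2 EpiLCs, whereas Esrrb, at 1229 and 1378, was 3.12 ± 0.17 (log2) above them. Slc25a4, the heart and muscle ADP/ATP carrier, read 6195 and 5531 in PGCLCs and 2376 and 2380 in day 2 EpiLCs (1.30 ± 0.06).

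**Figure D3:**
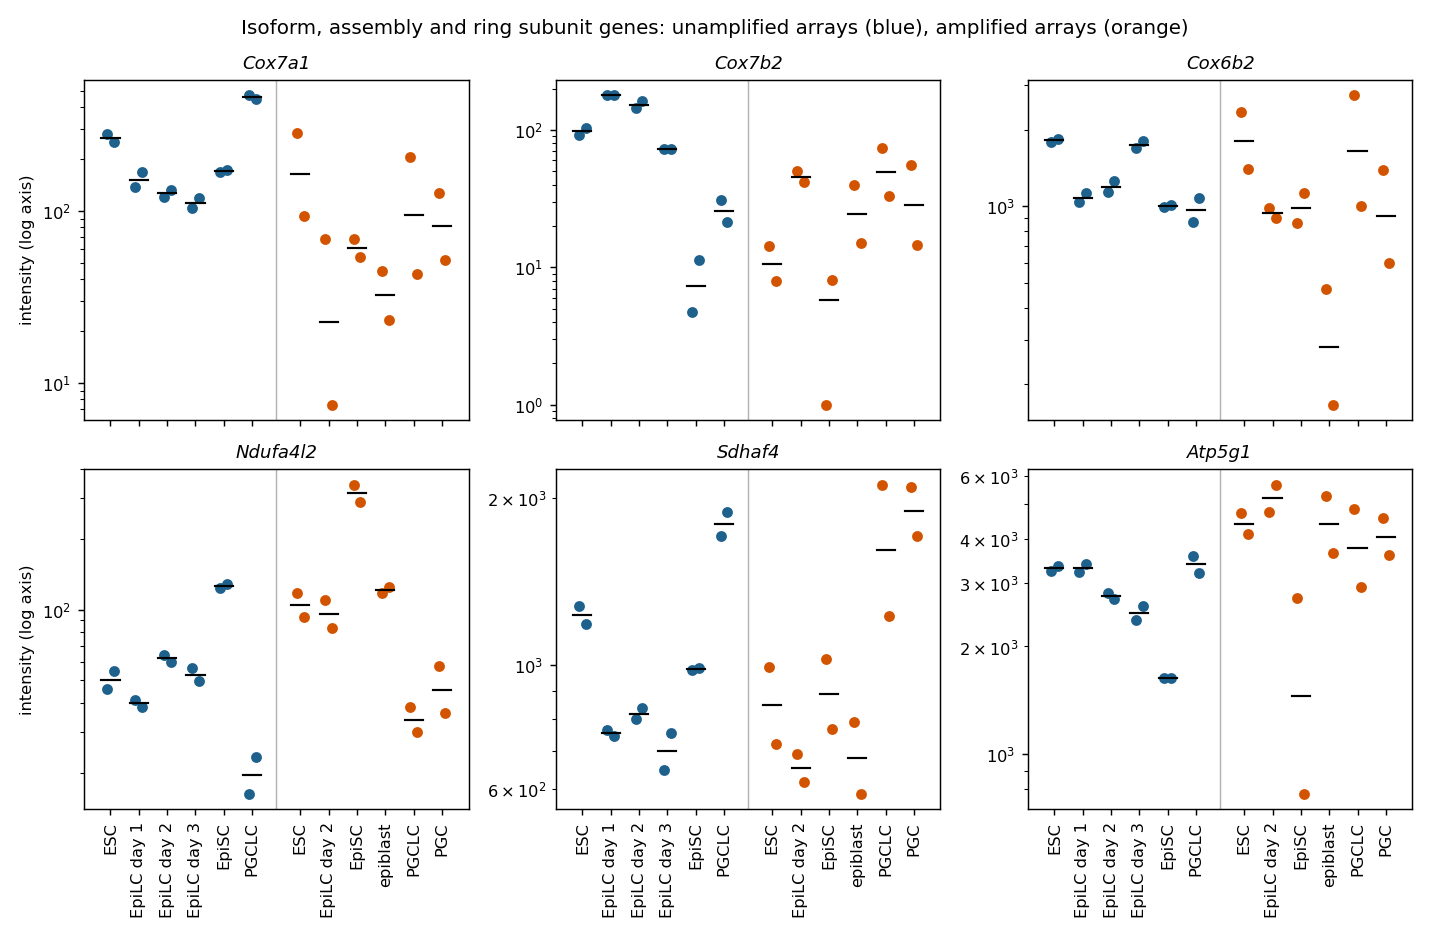
Deposited intensity (log axis) of Cox7a1, Cox7b2, Cox6b2, Ndufa4l2, Sdhaf4 and Atp5g1 on each of the 24 arrays, blue for unamplified and orange for amplified, with points for the 2 arrays of a group (replicate 1 on the left) and a line for their geometric mean after values under the floor of 4.2 were raised to it. Ndufa4l2 is highest in EpiSCs and lowest by mean in PGCLCs on both kinds of array, and Sdhaf4 is high in PGCLCs and PGCs.

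Members differed in how far they moved. Atp5b, which carries the catalytic sites of the ATP synthase, read 7967 to 9719 over the 12 unamplified arrays, and its partner Atp5a1 read 5125 to 6933. Uqcrfs1, the Rieske iron-sulphur protein of complex III, read 2200 to 2792 and passed in 1 of the 7 unamplified comparisons, from day 2 to day 3 (-0.23 ± 0.05, adjusted p = 0.0079). Sdhc, a membrane anchor of complex II, was lower than in ESCs on day 1 (-0.41 ± 0.07), on day 2 (-0.38 ± 0.07) and in EpiSCs (-0.48 ± 0.07), and lowest in PGCLCs, at 549 and 546. Cox7a2l fell on day 1 from 3399 and 3133 to 2339 and 2196 (-0.53 ± 0.08), rose by 0.32 ± 0.08 on day 2, and did not pass in EpiSCs against ESCs. Cox7a2, the ubiquitous form of subunit VIIa, rose by 0.29 ± 0.07 in PGCLCs, where Cox7a1 rose by 1.86.

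The heart and muscle forms other than Cox7a1 stayed dim. On unamplified arrays Cox6a2 read 18.3 to 49.3 and Cox8b 29.9 to 56.8, and Cox4i2, the lung form, 36.7 to 61.7 against a filter level of 28.1. The ubiquitous forms Cox6a1, Cox8a and Cox4i1 were well above that level on every unamplified array, at 7532 to 11409, 3112 to 4744 and 5850 to 8302. Probe sets differ in how brightly they read, so these values do not rank the isoforms. Over the 12 group means, with each kind of array centred apart, the genes whose log2 profile was most like that of Cox7a1 were Plekhm3 (Pearson r 0.94), Il6st (0.94) and Gjc1 (0.94). These are descriptions over 12 means that share arrays and replicates.

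On amplified arrays fewer members passed, as fewer of all genes did. For day 2 EpiLCs minus ESCs limma called 0 members, with 5 at an unadjusted p under 0.05, where 8.93% of all genes passed. The median change of the members was -0.065 (log2), against 0.02 over all genes and -0.25 for the members on unamplified arrays. It was -0.14 between replicate 1 arrays and 0.004 between replicate 2 arrays, so the broad decrease was mostly not seen here. With the replicate block 5 fell and 2 rose, where 15.5% of all genes passed, 7.89% higher and 7.59% lower. Those that fell were Cox7a1 (at least 6.76-fold, adjusted p = 0.0088), Sdha (-0.99 ± 0.14, adjusted p = 0.0014), Ndufa3, Sdhd and Uqcrc2. Cox7a1 read 283 and 93.4 in amplified ESCs and 68.5 and 7.46 in amplified day 2 EpiLCs, whose mean of 22.6 lay under the amplified filter level of 24. The difference of this comparison between amplified and unamplified arrays was called in 0 members, with 1 at an unadjusted p under 0.05, where 0.866% of all genes passed. Its median was 0.16 over the members and -0.001 over all genes. It lay above 0 in 71 of 93 members and in 7233 of 14554 genes.

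In amplified EpiSCs minus day 2 EpiLCs, 1 member rose and 2 fell, where 13.7% of all genes passed, 9.21% higher and 4.47% lower. Ndufa4l2 read 343 and 288 against 110 and 83.7, 3.28-fold higher (1.71 ± 0.29, adjusted p = 0.0045). Cox7b2 read 1 and 8.04 against 49.9 and 41.5 (at least 1.89-fold lower, adjusted p = 0.024), and Atp5g1 2733 and 774 against 4761 and 5667 (-1.84 ± 0.50, adjusted p = 0.038). With the block 16 fell and 3 rose, where 24.8% of all genes passed, 15.1% higher and 9.71% lower. Without the block, the count of members past the threshold depended on single arrays. More passed without the EpiSC replicate 1 array and fewer without either array of day 2 EpiLCs. The shares of all genes in those fits are not given. The median change was 0.01 between replicate 1 arrays and -0.60 between replicate 2 arrays, so the decrease of the members lay in replicate 2. Its difference from the unamplified comparison was called in 0 members, also 0 at an unadjusted p under 0.05, where 0.295% of all genes passed. Without the EpiSC replicate 1 array members were called, and the share of all genes in that fit is not given.

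The embryo gave reference points. Day 2 EpiLCs and the epiblast differed in 0 members by limma, with 2 at an unadjusted p under 0.05 and also 0 with the block, where 0.961% of all genes passed, or 2.22% with the block. With 2 arrays a group this does not show that they are alike. Some members were called in a blocked fit without the amplified EpiSC arrays, chosen after seeing the data and given at the end. The epiblast read 45 and 23.1 for Cox7a1, 118 and 125 for Ndufa4l2, and 474 and 167 for Cox6b2, the last of these under the 984 and 900 of amplified day 2 EpiLCs (1.74 ± 0.61, adjusted p = 0.32). EpiSCs minus epiblast gave 1 member, Ndufa4l2 (1.37 ± 0.29, adjusted p = 0.015), where 12.7% of all genes passed, 9.56% higher and 3.11% lower. With the block 3 rose, among them Cox6b2 (1.81 ± 0.43, adjusted p = 0.018), and 8 fell, where 21.3% of all genes passed, 14.6% higher and 6.68% lower. Without the block, more members passed when the EpiSC replicate 1 array was left out, and the call was lost without either epiblast array. The shares of all genes in those fits are not given. Of 13 visceral endoderm markers, 3 were lower in day 2 EpiLCs than in the epiblast and 5 in EpiSCs, with 0 higher in either. The part of these markers in the results was not tested.

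In the germ line direction, PGCLCs minus day 2 EpiLCs gave 1 higher and 2 lower on amplified arrays, where 13.9% of all genes passed, 7.12% higher and 6.82% lower. Sdhaf4 read 2111 and 1228 against 693 and 616 (1.30 ± 0.32, adjusted p = 0.023), Sdhaf3 146 and 98.5 against 368 and 442 (-1.75 ± 0.30, adjusted p = 0.0042) and Ndufa4l2 38.3 and 29.9 against 110 and 83.7 (-1.50 ± 0.29, adjusted p = 0.0082). With the block 4 rose, Cox7a1 among them (at least 3.91-fold, adjusted p = 0.028), and 8 fell, where 23% of all genes passed, 11.6% higher and 11.4% lower. Leaving out the day 2 EpiLC replicate 1 array left 1 member. Endothelial and blood markers summed to 2338 to 2778 in these PGCLCs and to 557 to 619 in day 2 EpiLCs, with 7 of 13 higher. Visceral endoderm markers summed to 9192 to 11100 against 2479 to 5969, with 2 of 13 higher, and fibroblast markers to 1018 to 1157 against 963 to 987. Their part in the result was not tested. The difference from the unamplified comparison was called in 0 members, with 2 at an unadjusted p under 0.05, where 0.852% of all genes passed.

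PGCs of the embryo minus epiblast gave Sdhaf4 higher and Ndufa4l2 lower, where 11.3% of all genes passed, 6.55% higher and 4.76% lower. Sdhaf4 read 2092 and 1708 in PGCs and 791 and 587 in the epiblast, 2.77-fold higher (1.47 ± 0.32, adjusted p = 0.016). Ndufa4l2 read 57.3 and 36 against 118 and 125, 2.68-fold lower (-1.42 ± 0.29, adjusted p = 0.013). With the block 6 rose and 1 fell, where 18.6% of all genes passed, 10.3% higher and 8.32% lower. Those that rose included Cox6b2 (1.70 ± 0.43), Ndufb11 (0.97 ± 0.26) and Sdha (0.47 ± 0.14). Without a single array of these groups 0 or 1 members passed: 1 without replicate 1 of either group, and 0 without replicate 2 of either. Endothelial and blood markers summed to 5212 to 12030 in PGCs, 2338 to 2778 in amplified PGCLCs and 410 to 436 in the epiblast. Fibroblast markers summed to 1366 to 3070 in PGCs and 697 to 854 in the epiblast, with 7 of 17 higher and 1 lower. Visceral endoderm markers summed to 4343 to 5087 in PGCs and 3312 to 5598 in the epiblast, with 0 of 13 higher and 3 lower. The part of these markers in the result was not tested.

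PGCLCs and PGCs differed in 0 members by limma, also 0 at an unadjusted p under 0.05 and with the block, where 2.92% of all genes passed, or 5.66% with the block. The median difference of the members was -0.105 (log2), against -0.009 over all genes. It was 0.003 between replicate 1 arrays and -0.23 between replicate 2 arrays. With 2 arrays a group these counts do not show that the cells are alike. Whether the step from day 2 EpiLCs to PGCLCs differed from that from epiblast to PGCs was tested as an interaction: 0 members passed, with 1 at an unadjusted p under 0.05, where 0.513% of all genes passed. With the block 0 passed as well, where 1.65% of all genes did. For the interaction and for PGCLCs minus PGCs, a blocked fit without the amplified EpiSC arrays, chosen after seeing the data, called some members. The median interaction was -0.29 over the members and -0.045 over all genes. It lay below 0 in 72 of 93 members and in 8395 of 15609 genes, so the tests do not show that the steps are alike. For Sdhaf4 the interaction was -0.17 ± 0.45 and for Ndufa4l2 -0.08 ± 0.42.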

How the data were processed

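RNA was measured in 24 mouse samples. The authors deposited 1 linear intensity per probe set and array (45101 probe sets, from 1 to 17519). Which software and normalization produced these deposited intensities is not given in the sources. Of the probe sets, 34958 had a single symbol in the array annotation, 932 had several, and 0 symbols changed on matching gene IDs to RefSeq (GRCm38.p6).

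Each gene took its brightest probe set, by mean log2 across the 24 arrays. For 53 members several probe sets exist, and these differed in sign in 9 to 16 of 53 over the unamplified comparisons and in 13 to 21 over the amplified ones. Values under 4.2, the 10th percentile, were raised to it. Genes were tested where at least 2 of 12 arrays exceeded the 40th percentile (28.1 unamplified, 24 amplified): 14935 and 15609 genes, 14554 on both. Group means were fitted with limma 3.58.1 (R 4.3.3) over all 12 arrays of a kind, with 6 residual degrees of freedom and variances moderated along intensity. P-values are two-sided and adjusted over all genes by Benjamini-Hochberg, with 0.05 as the threshold. Interactions between kinds of array used all 24. A gene under the filter level in 1 group has its fold against that level ("at least"). The fit was checked on simulated data.

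On amplified arrays the deviations of same-numbered replicates correlated above 0.1 for 15 of 15 group pairs (median r 0.37), and on unamplified arrays for 3 of 15 (median 0.06). The number was therefore used as a pairing on amplified arrays only.

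Named genes were the 5 largest increases and 5 largest decreases per comparison with arrays that did not overlap, fixed isoform and core genes, up to 4 genes per other list, identity markers and the 3 genes most like Cox7a1. Members, lists and tests were chosen with earlier results of these data known. Ndufv2, Atp5pb, Atp5mpl, Ndufa2 and other members outside this rule were named after their values were seen.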

Additional observations from a re-analysis of the deposited data

How the results depend on the processing

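Alternatives for the counts of members past the threshold were centring, quantile normalization, a higher floor, no filter, the mean of a gene's probe sets, no probe sets ending in _s_at or _x_at, blocks, only the groups compared, and leaving out arrays. Counts in the unamplified comparisons stayed within 1.5 times of those reported, except that leaving out 1 array gave 15 to 18 for day 2 minus day 1 and 7 to 13 for day 3 minus day 2. Leave-one-out counts were 44 to 50 for day 1 minus ESC, 48 to 54 for day 2 minus ESC, 32 to 38 for EpiSC minus day 2, 52 to 59 for EpiSC minus ESC and 35 to 47 for PGCLC minus day 2. On amplified arrays they were 0 to 1 for day 2 minus ESC, 1 to 17 for EpiSC minus day 2, 1 to 2 for PGCLC minus day 2, 0 to 7 for EpiSC minus epiblast and 0 to 1 for PGC minus epiblast, and 0 to 16 for the amplified minus unamplified difference of EpiSC minus day 2. The replicate block moved the amplified counts to 7, 19, 12, 11 and 7 in that order of comparisons, and to 2 and 1 for the amplified minus unamplified differences of day 2 minus ESC and EpiSC minus day 2. On unamplified arrays, where the number does not pair samples, the replicate block gave 59 members for day 1 minus ESC and 70 for EpiSC minus ESC. The block without the amplified EpiSC arrays, chosen after seeing the data, gave 19 (day 2 minus ESC), 23 (PGCLC minus day 2), 8 (day 2 minus epiblast), 15 (PGC minus epiblast), 2 (PGCLC minus PGC) and 2 (the interaction). For this fit the share of all genes is not given, so these counts do not show a result particular to the members. Only the groups compared gave 1, 1 and 0 for day 2 minus ESC, EpiSC minus day 2 and EpiSC minus epiblast, quantile normalization gave 5 for amplified EpiSC minus day 2, and the higher floor gave 1 for the amplified minus unamplified difference of PGCLC minus day 2. Atp5g1 reversed from day 1 to day 2 with the mean of its probe sets (0.40, not past the threshold). Of 691 values of single genes under settings other than leaving out an array, 670 kept direction and call and 20 lost the call; of 308 with 1 array left out, 49 lost it. The causes were not tested. Signal near the filter level limits Cox7b2, Ndufa4l2, Cox6a2 and Cox8b.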
